A study of Mus musculus with 2 samples.

Results

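AMH-undetected non-dividing Sertoli cells were cells of the testis that carried Sertoli cell transcripts, few transcripts of cell division and no counted transcript of Amh. A barcode was taken as a cell with at least 1000 unique molecular identifiers (UMIs, each standing for 1 captured transcript), at least 500 genes and at most 20% of its UMIs from mitochondrial genes. Such a cell entered the class when Aard, Cst9, Cst12 and Sox9 together made up at least 10 of every 10000 UMIs, when Ddx4 and Dazl together and Mki67, Top2a, Ube2c and Cenpf together had fewer than 3 UMIs each, and when Amh had 0 UMIs. The class held 5748 of the 22096 cells, 2861 of 10864 in the knockout library and 2887 of 11232 in the control library. The cells were thus chosen by the measured UMIs of these genes, whose values are given as a description only.

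Sertoli cells are the somatic cells of the seminiferous tubule that surround the germ cells, feed them through lactate and other products, and close the blood-testis barrier with tight junctions. Before puberty they divide and make large amounts of anti-Müllerian hormone, the product of Amh. As they mature under androgen and follicle-stimulating hormone, Amh falls, barrier and androgen-response genes such as Rhox5 come on, and secretion of the stem cell factor GDNF is reduced. The question asked of the data was whether differences of the knockout library also stood in cells without a counted Amh transcript.

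Both libraries were 10x 3' single-cell libraries of whole testis from C57BL/6 mice of 13 days, 1 per genotype. The knockout was Psma7 F/-;Stra8-Cre KI/+, with 1 floxed and 1 null copy of the proteasome subunit gene Psma7 in every cell and Cre knocked in at Stra8, a gene of germ cells. The control was Psma7 F/+, with 1 floxed and 1 wild-type copy, and its label names no Cre allele. Because Stra8-Cre is a germ cell driver, Sertoli cells of the knockout carry the null copy by genotype, beside germ cells in which the floxed copy can be cut. How many animals went into a library is not given in the sources used here. With 1 library per genotype no difference could be tested, no replicate spread exists, and the intervals given (exact 95% Poisson for levels, exact conditional for ratios, Clopper-Pearson for shares) cover counting error only.

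The class totals were 11844081 UMIs in the knockout and 16769391 UMIs in the control library. Knockout cells were shallower, with a median of 3259 UMIs and 1893 genes, against 4538 UMIs and 2463 genes in control cells. Mitochondrial shares were close, with medians of 8.43% in knockout and 8.40% in control cells. The libraries shared 29 cell barcodes, 0.267% of knockout and 0.258% of control cells. Levels are UMIs summed over the cells of the class and scaled to the class total as CPM, the usual counts-per-million unit, and ratios are log2 of knockout over control.

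The label was checked against 2 Sertoli markers that the gate did not use, Cldn11 and Cdh2, which were seen in a larger share of these cells than of endothelial cells and macrophages. Stromal, myoid and Leydig cells were not compared in this way. After every cell was thinned to 2000 UMIs, Cldn11, the claudin of the Sertoli cell tight junction, was seen in 27.7% of 2345 knockout cells and 40.1% of 2598 control cells, against 3.51% of knockout and 1.12% of control endothelial cells and 0% and 2.22% of macrophages. Cdh2, the N-cadherin of Sertoli cell junctions, was seen in 38.0% of knockout and 54.6% of control cells, against 3.51% and 5.62% of endothelial cells and 2.38% and 0% of macrophages. The thinning left out 516 knockout and 289 control cells with fewer UMIs, and unthinned the shares with a Cdh2 UMI were 48.8% in the knockout and 73.5% in the control library.

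Cells with markers of other somatic cells also passed the gate, more of them in the knockout. Cells in which markers of Leydig, peritubular myoid, stromal, immune, endothelial, pericyte and red blood cells together reached 10 per 10000 UMIs numbered 642 of 2861 in the knockout library (22.4%, interval 20.9 to 24.0) and 315 of 2887 in the control library (10.9%, 9.80 to 12.1). The 8 stromal markers summed to 2188 CPM in knockout and 1039 CPM in control cells, with none of the 8 at 0. In the 338 knockout and 503 control cells with the lowest gate sums, 10 to 20 per 10000, the stromal sum was 8543 and 3656 CPM in knockout and control cells. The Sertoli markers outside the gate were lower there than in cells with gate sums of 20 to 50. Cldn11 was at 89.8 CPM in knockout and 208 CPM in control cells with the lowest gate sums, beside 180 and 283 CPM in those of 20 to 50, and Cdh2 at 156 and 492 CPM, beside 322 and 537 CPM. The 4 haemoglobin genes summed to 157 CPM in knockout and 3.46 CPM in control cells. A stricter gate, chosen after seeing the data, asked for at least 20 gate UMIs per 10000 and fewer than 10 of the other somatic markers. It kept 2094 knockout and 2226 control cells and brought the stromal sum to 171 and 83.6 CPM, the myoid sum to 55.1 and 55.2 CPM and the haemoglobin sum to 13.0 and 3.12 CPM. Because this gate limits the same marker genes, these falls follow from its rule and do not measure how many other cells were left out. Values under it are given beside the results as the strict gate, and the part of other cells in each result was otherwise not tested.

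**Figure D1:**
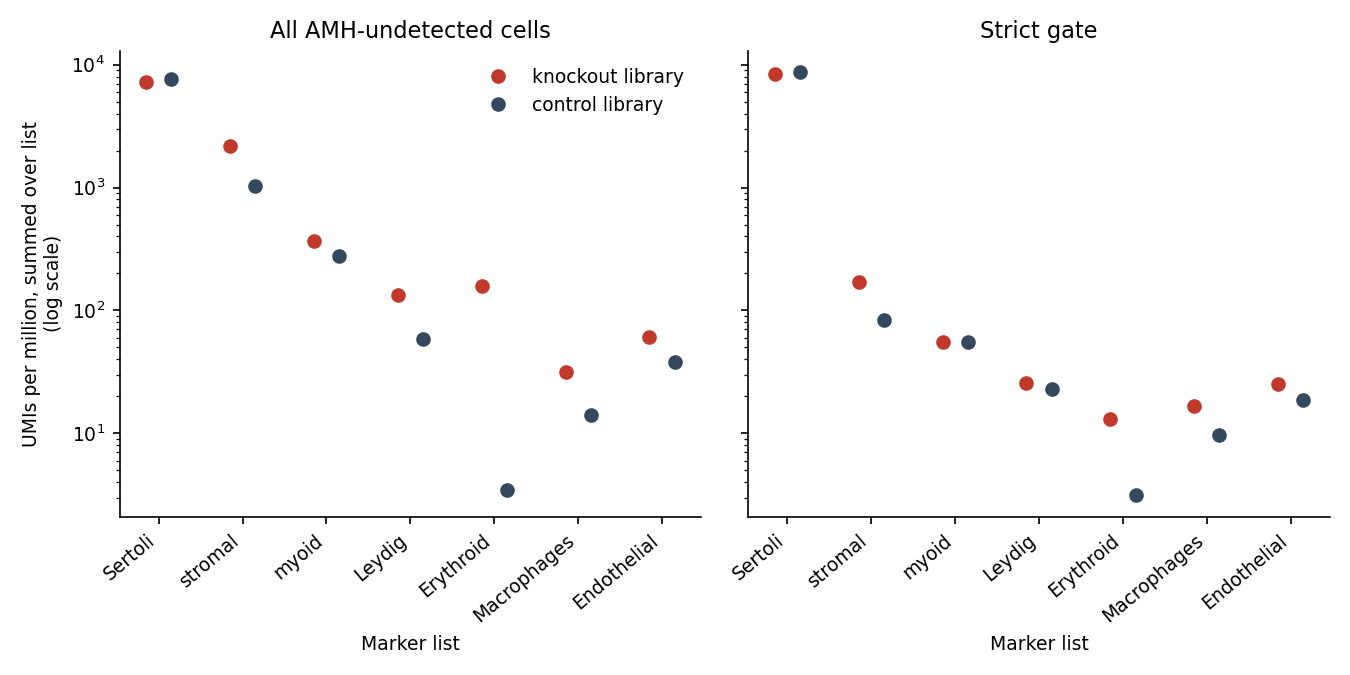
Summed level (CPM, log scale) of marker lists of Sertoli cells and of other somatic cells in all AMH-undetected cells (left) and under the strict gate (right), 1 point per library. The stromal sum was 2188 CPM in the knockout and 1039 CPM in the control library, and 171 and 83.6 CPM under the strict gate. That gate limits the markers of other somatic cells, so their fall follows from its rule.

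Fewer of the knockout library's non-dividing Sertoli cells lacked an Amh UMI. The class made up 2861 of 6591 such cells in the knockout library (43.4%, 42.2 to 44.6) and 2887 of 3836 in the control library (75.3%, 73.9 to 76.6). Since a cell with few UMIs can miss a transcript it holds, the share was also read at matched depth. Among cells of 5000 to 10000 UMIs it was 31.2% in the knockout and 72.7% in the control library, and among cells of 20000 UMIs or more 10.0% of 239 and 29.0% of 169 cells. With every cell thinned to 2000 UMIs it was 63.0% in the knockout and 89.5% in the control library, and thinned to 5000 UMIs 39.1% and 77.8%. At each depth examined the knockout share was the lower one, and in both libraries deeper cells had a lower share than shallow cells.

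**Figure D2:**
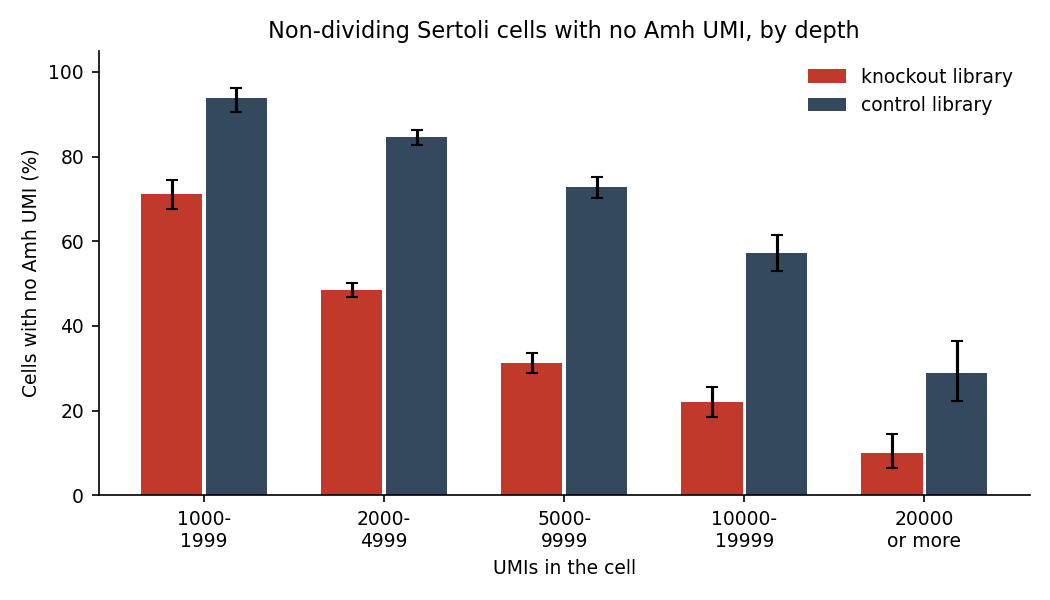
Share of non-dividing Sertoli cells with no Amh UMI (%, bars with exact 95% binomial intervals) in 5 bands of UMIs per cell, knockout bars left of control bars. The knockout share was lower in each band, 31.2% against 72.7% in cells of 5000 to 10000 UMIs and 10.0% against 29.0% in cells of 20000 UMIs or more.

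Free RNA bears on this share from the other side. Amh was at 163 CPM in the free RNA of the knockout and 21.9 CPM in that of the control library. The part of free RNA in the difference of the shares was not tested. An Amh UMI was seen in 8 of 70 endothelial cells of the knockout library (11.4%) and in 1 of 102 of the control library (0.980%), and in 2.25% of 89 and 1.01% of 99 macrophages. These endothelial cells had a median of 6116 UMIs in the knockout and 6892 UMIs in the control library, and the macrophages 11454 and 10713 UMIs. Thinned to 2000 UMIs, Amh was seen in 3.51% of knockout endothelial cells, in 0 of 89 control endothelial cells (upper bound 4.06%), and in 0 of 84 knockout and 0 of 90 control macrophages (upper bounds 4.30% and 4.02%). Just outside the rule lay cells with 1 Amh UMI, 1652 in the knockout and 626 in the control library. Knockout cells with 1 Amh UMI had Gdnf at 99.9 CPM and Cdh2 at 262 CPM, against 90.6 and 269 CPM in knockout cells with none. Control cells with 1 Amh UMI had Gdnf at 30.4 CPM and Cdh2 at 461 CPM, against 19.8 and 480 CPM in control cells with none. Among these values Gdnf in control cells was the one that stood clearly higher just outside the rule than just inside it.

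Psma7, which lies on chromosome 2 at 180036374 to 180042433 on the minus strand of mm10, was lower in knockout cells of the class. Psma7 was counted 799 times in knockout cells and 3255 times in control cells. The level was 67.5 CPM (62.9 to 72.3) in the knockout and 194 CPM (187 to 201) in the control library, a log2 ratio of -1.52 (-1.64 to -1.41). The ratio was -1.74 under the strict gate and -1.56 in AMH-detected non-dividing Sertoli cells of the same libraries. Which exons are floxed is not given in the sources used here, and a 3' count can include transcripts of the locus that lack a deleted part. The other 31 subunits of the 20S core and the 19S cap, which build the same protease, had a median log2 ratio of -0.10. Of these subunits 0 of 31 differed by 1.5-fold in either direction, beside 19.6% of all genes higher and 8.5% lower. Psmd2 was the lowest at -0.53 and Adrm1 the highest at 0.37. The median of these subunits was -0.31 under the strict gate, beside -0.00 for all genes, with 24 of 31 below 0. There 2 of 31 were at least 1.5-fold lower, beside 8.7% of all genes, and Psmd2 was at -0.73.

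Across the genome 15348 genes had at least 30 UMIs in the class, and their median ratio was 0.04, or -0.00 for 14109 genes under the strict gate. A difference of 2-fold or more toward higher levels in the knockout was shown by 1284 genes (8.37%), and one toward lower levels by 490 genes (3.19%). In AMH-detected cells, which come from the same libraries and so share them in every comparison, the shares were 7.88% higher and 2.51% lower of 15677 genes. Since these are counts past a fold and not tests, they serve as the background against which the gene lists are read. With the strict gate 1047 genes (7.42%) were 2-fold or more higher and 474 (3.36%) lower. The corresponding backgrounds at 1.5-fold, the size used for lists, were 19.6% of genes higher and 8.5% lower in AMH-undetected cells, 16.7% and 8.7% under the strict gate, and 17.9% and 6.7% in AMH-detected cells.

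The 5 markers given for the class were all at lower levels in knockout cells, with a list median of -0.85. Cldn11 (chromosome 3, 31149920 to 31164324, plus strand) was at 169 CPM in the knockout and 279 CPM in the control library, a ratio of -0.73 (-0.80 to -0.65). Cdh2 was at 269 CPM in the knockout and 480 CPM in the control library, a ratio of -0.84 (-0.90 to -0.78). Defb36, a beta-defensin, was at 104 CPM in the knockout and 187 CPM in the control library, a ratio of -0.85 (-0.94 to -0.75). The 3 abundant markers thus stood apart by less than 2-fold, and the 2 rarer ones by more. Rhox5 (chromosome X, 37804842 to 37808876, plus strand), a homeobox gene that androgen induces in Sertoli cells, was at 5.32 CPM (63 UMIs) in the knockout and 20.5 CPM (344 UMIs) in the control library, a ratio of -1.94 (-2.36 to -1.56). Sdk2 (chromosome 11, 113776374 to 114067046, minus strand), a cell adhesion molecule of the immunoglobulin family, was at 21.3 CPM in the knockout and 98.7 CPM in the control library, a ratio of -2.21 (-2.41 to -2.02). Under the strict gate the 5 ratios were -0.63 for Cldn11, -0.65 for Cdh2, -0.82 for Defb36, -1.92 for Rhox5 and -2.30 for Sdk2, so each was also lower in the knockout among cells with few markers of other types.

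In AMH-detected cells the same ratios were -0.61 for Cldn11, -0.77 for Cdh2, -0.81 for Defb36, -1.32 for Rhox5 and -2.49 for Sdk2, with a median of -0.81. Counted per cell after thinning to 2000 UMIs, Sdk2 was seen in 3.54% of knockout and 14.1% of control AMH-undetected cells. Its share was 1.75% in knockout and 1.12% in control endothelial cells. Rhox5 was seen in 1.19% of knockout and 4.20% of control cells, while endothelial cells showed it in 0% and 1.12%. The knockout share of Rhox5 lay close to these background shares, so its remaining expression was not resolved at this depth.

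**Figure D3:**
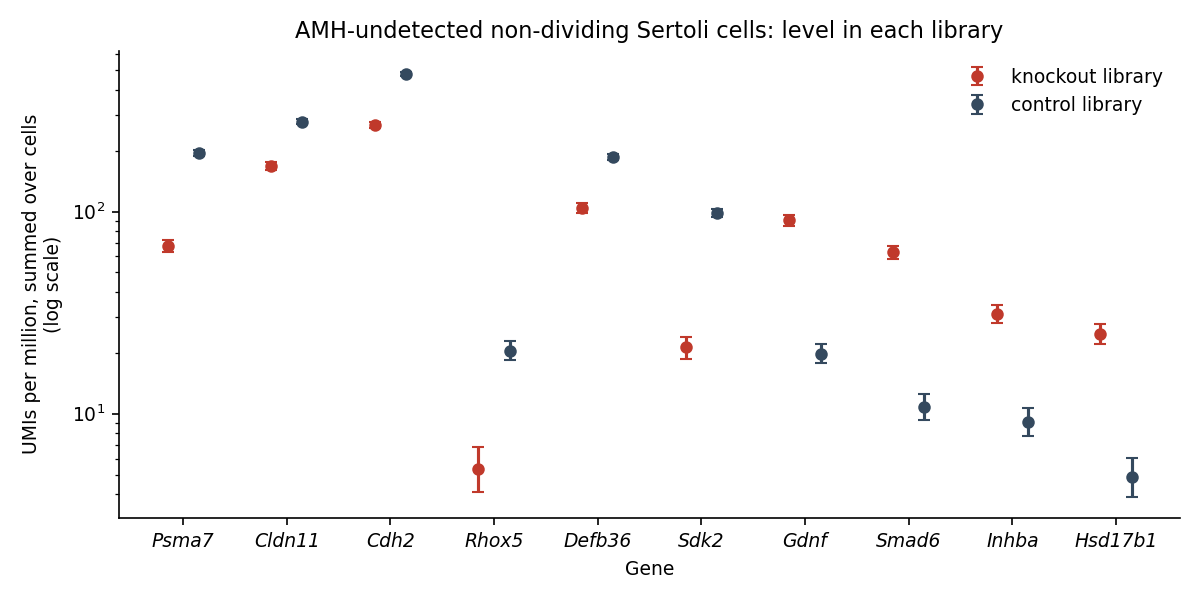
Levels (CPM, log scale, with exact 95% Poisson intervals) of Psma7, the 5 class markers and 4 genes of growth factor signalling and steroid metabolism in AMH-undetected cells, knockout points left of control points. Psma7 and the markers were lower in the knockout library, by -0.73 to -2.21 on the log2 scale for the markers, and Gdnf, Smad6, Inhba and Hsd17b1 were higher. Most Inhba UMIs lay outside the strict gate, under which Inhba was at 1.71 CPM in the knockout and 0.56 CPM in the control library.

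Ligands through which somatic cells hold the germ cell niche were at higher levels in the knockout library. Of 15 measured members of the list, 9 were at least 1.5-fold higher (background 19.6%) and 0 lower (background 8.5%), and the median was 0.67. The median was 0.60 under the strict gate, with 7 of 13 members higher (background 16.7%). In AMH-detected cells it was 1.09, with 12 of 15 higher (background 17.9%). Gdnf (chromosome 15, 7810846 to 7837575, plus strand), the factor that maintains spermatogonial stem cells, was at 90.6 CPM (85.2 to 96.2) in the knockout and 19.8 CPM (17.7 to 22.1) in the control library, a ratio of 2.19 (2.02 to 2.38). The strict gate left Gdnf at 108 CPM in the knockout and 21.8 CPM in the control library. Thinned to 2000 UMIs, 17.5% of knockout and 4.04% of control cells held a Gdnf UMI, against 1.75% of knockout and 1.12% of control endothelial cells. The Gdnf difference therefore stood in cells with no Amh UMI, in cells with the fewest markers of other types, and at matched depth.

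Pdgfa, a growth factor that Sertoli cells send to interstitial cells, was at 36.3 CPM in the knockout and 12.1 CPM in the control library, a ratio of 1.59 (1.75 under the strict gate). Vegfa, the vascular growth factor, was at 94.0 CPM in the knockout and 44.1 CPM in the control library, and at 98.0 and 43.6 CPM under the strict gate. Both kept their levels when cells with markers of other types were left out. That did not hold for Cxcl12, a chemokine, which was at 76.7 CPM in the knockout and 29.0 CPM in the control library and at 10.5 and 3.60 CPM under the strict gate. Igf1, itself among the stromal markers, was at 130 CPM in the knockout and 68.5 CPM in the control library, and at 8.78 and 4.32 CPM under the strict gate. For Cxcl12 and Igf1 most of the counted UMIs thus came from cells that the strict gate removed. Kitl, the ligand for the receptor of differentiating spermatogonia, was the most abundant ligand at 759 CPM in the knockout and 640 CPM in the control library, a ratio of 0.25. The lowest members were Wnt6 at 0.24 and Pdgfb, on 21 knockout and 33 control UMIs, at -0.14 (-1.01 to 0.68).

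In AMH, activin and inhibin signalling, feedback and target genes were at higher levels in the knockout library. AMH binds its own receptor AMHR2 and shares with the bone morphogenetic proteins the type I receptors and the effectors SMAD1, SMAD5 and SMAD9, while SMAD6 and SMAD7 restrain the pathway and the Id genes are among its targets. Of 22 measured members 9 were at least 1.5-fold higher in the knockout library (background 19.6%) and 0 lower (background 8.5%), with a median of 0.30. Under the strict gate 7 of 20 were higher (background 16.7%) and 1 lower (background 8.7%). In AMH-detected cells 8 of 22 were higher (background 17.9%) and 1 lower (background 6.7%). Smad6 (chromosome 9, 63953076 to 64022059, minus strand) was at 63.0 CPM in the knockout and 10.8 CPM in the control library, a ratio of 2.53 (2.30 to 2.78). It was seen in 11.9% of knockout and 1.66% of control cells after thinning to 2000 UMIs, against 7.02% and 3.37% of endothelial cells and 4.76% and 2.22% of macrophages. Endothelial cells and macrophages can express Smad6 themselves, so these shares are no measure of background. In free RNA Smad6 was at 35.1 CPM in the knockout and 4.57 CPM in the control library. Id3 was at 281 CPM in the knockout and 107 CPM in the control library, a ratio of 1.39, Id1 at 1.08, Id2 at 0.97 and Smad7 at 0.87. These feedback and target genes kept their direction under the strict gate, with 2.76 for Smad6, 1.58 for Id3, 0.96 for Id1, 0.87 for Id2 and 0.96 for Smad7.

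Receptors of the same list went both ways. Bmpr1b, a type I receptor, was at 0.95. Amhr2, the AMH receptor, was at 185 CPM in the knockout and 266 CPM in the control library, a ratio of -0.52 (-0.60 to -0.45), and Bmpr2 and Bmpr1a were at -0.28 and -0.25. Fshr, the receptor for follicle-stimulating hormone, was at 281 CPM in the knockout and 289 CPM in the control library, a ratio of -0.04 (-0.11 to 0.02). Inha, the inhibin alpha subunit, stood at 209 CPM in the knockout and 212 CPM in the control library, a ratio of -0.02 (-0.10 to 0.05). Inhba, the beta A subunit of activin and inhibin, was at 31.2 CPM in the knockout and 9.12 CPM in the control library, a ratio of 1.77. Its UMIs, however, sat where markers of other cell types did. Inhba was at 124 CPM in knockout and 33.5 CPM in control cells of gate sums 10 to 20. Under the strict gate it was at 1.71 and 0.56 CPM, on 14 and 7 UMIs.

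Promoter sequence is shown for Smad6 and Gdnf, the signalling genes with the largest ratios that stood under the strict gate, and for Tsx and Cpne8, which were lower in knockout cells. Each line gives 250 bases before and 50 after a transcription start of RefSeq on mm10, 5′ to 3′ on the strand of the gene. Capitals mark matches, on either strand, to 4 short motifs. A motif of steroid hormone receptors was searched as AGAACA. That of nuclear receptors such as SF1, which acts in Sertoli cells, was searched as AGGTCA. The SOX factor motif, which SOX9 and its relatives bind, was searched as AACAAT. The motif that GATA1 and GATA4 bind was searched as AGATAA. The windows are chr9:64022010-64022309 on the minus strand for Smad6, chr15:7809798-7810097 on the plus strand for the first of 2 listed starts of Gdnf, chrX:103414217-103414516 on the plus strand for Tsx, and chr15:90679339-90679638 on the minus strand for Cpne8.
Smad6: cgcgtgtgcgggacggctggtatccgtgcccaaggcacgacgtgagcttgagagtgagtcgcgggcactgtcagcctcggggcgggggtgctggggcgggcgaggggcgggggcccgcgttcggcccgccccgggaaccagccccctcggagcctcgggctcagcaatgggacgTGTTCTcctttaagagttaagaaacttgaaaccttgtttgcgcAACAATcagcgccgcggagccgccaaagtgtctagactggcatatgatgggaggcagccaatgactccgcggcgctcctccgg
Gdnf: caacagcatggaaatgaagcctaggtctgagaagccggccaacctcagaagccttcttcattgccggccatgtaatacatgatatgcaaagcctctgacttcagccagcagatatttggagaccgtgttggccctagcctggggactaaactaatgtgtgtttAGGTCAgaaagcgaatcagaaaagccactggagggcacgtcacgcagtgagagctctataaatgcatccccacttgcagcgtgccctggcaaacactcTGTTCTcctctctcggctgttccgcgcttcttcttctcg
Tsx: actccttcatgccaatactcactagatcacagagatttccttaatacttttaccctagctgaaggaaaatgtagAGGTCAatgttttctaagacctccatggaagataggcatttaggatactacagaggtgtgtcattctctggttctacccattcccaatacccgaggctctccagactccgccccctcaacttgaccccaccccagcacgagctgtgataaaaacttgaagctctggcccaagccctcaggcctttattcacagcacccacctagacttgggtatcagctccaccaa
Cpne8: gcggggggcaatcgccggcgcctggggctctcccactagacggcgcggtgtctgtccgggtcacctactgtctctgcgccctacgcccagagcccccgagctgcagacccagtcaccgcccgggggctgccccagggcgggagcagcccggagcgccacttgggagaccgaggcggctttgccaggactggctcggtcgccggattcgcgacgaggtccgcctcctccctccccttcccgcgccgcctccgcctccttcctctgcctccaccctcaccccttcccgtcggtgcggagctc
Smad6 held AGAACA once, read as its reverse complement at bases 175 to 180 of the window, and AACAAT once, at bases 218 to 223. Gdnf held AGAACA once, again as the reverse complement, and AGGTCA once. The second listed start of Gdnf, not printed, held AGATAA once, at bases 167 to 172, and none of the other 3 motifs. Tsx held AGGTCA once, and Cpne8 none of the 4 motifs in this window. Of 32851 promoter windows of the same length, 19% held AGAACA, 16.3% AGGTCA, 10.7% AACAAT and 11.2% AGATAA on either strand, and the motifs can overlap one another. The Smad6 and Tsx starts are also those of the GENCODE annotation, the Cpne8 start lies 44 bases and the Gdnf start 798 bases from it. A match is a description of these letters and not a binding site.

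Androgen-response genes were lower as a list, with a median of -0.43 in AMH-undetected and -0.43 in AMH-detected cells and -0.48 under the strict gate. Of 13 measured members 5 were at least 1.5-fold lower (background 8.5%) and 1 higher (background 19.6%). Beside Rhox5, Defb45, a beta-defensin, was at 7.26 CPM in the knockout and 18.4 CPM in the control library, a ratio of -1.34 (-1.71 to -0.99). Eppin, a protease inhibitor of the male tract, was at 16.5 CPM in the knockout and 37.6 CPM in the control library, a ratio of -1.19. Drd4 and Fkbp5 were near level at -0.04 and -0.11, and Zbtb16 was at 0.11. The 1 higher member was Cldn3, a claudin that androgen induces, at 4.16 on 31 knockout and 2 control UMIs, with an interval from 2.48 to 7.56.

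Among genes of immature Sertoli cells 4 of 9 measured members were at least 1.5-fold higher (background 19.6%) and 0 lower (background 8.5%). Their median was 0.52 (0.55 under the strict gate, 0.73 in AMH-detected cells, and 0.13 to 1.07 across the alternatives). Hsd17b1 (chromosome 11, 101078411 to 101080527, plus strand), a steroid dehydrogenase, was at 24.8 CPM in the knockout and 4.89 CPM in the control library, a ratio of 2.34 (1.99 to 2.72) that was 2.43 under the strict gate. Krt18, a keratin of the early Sertoli cell, was at 2.47 on only 25 knockout and 6 control UMIs. Nr0b1, the nuclear receptor DAX1, stood at the other end at -0.43, and Stmn1, which destabilises microtubules, at 0.10.

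Abundant and secreted Sertoli products went both ways, with a median of 0.33 that was 0.11 under the strict gate and below 0 under other settings. Tsx, an X-linked gene of Sertoli cells, was the lowest at 3.12 CPM (37 UMIs) in the knockout and 18.96 CPM (318 UMIs) in the control library, a ratio of -2.58 (-3.13 to -2.11). Tsx was seen in 16 knockout cells (0.682%) and 87 control cells (3.35%) after thinning, and in 0 of 57 knockout and 0 of 89 control endothelial cells. The lysosomal protease gene Ctsl was at 0.41 and Clu, for clusterin, at 0.16. Ptgds and Timp1, the highest members at 1.35 and 1.11, rested on at most 124 UMIs in a library. Sparc was at 810 CPM in the knockout and 570 CPM in the control library but at 361 and 407 CPM under the strict gate, where its direction turned.

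Transcription factors of Sertoli cells had a median of 0.01, whose sign changed with the settings. Among 13 measured members 3 were at least 1.5-fold higher (background 19.6%) and 2 lower (background 8.5%). Wt1 was at 462 CPM in the knockout and 801 CPM in the control library, a ratio of -0.79 (-0.84 to -0.75). Gata1, which comes on in maturing Sertoli cells, was at 34.1 CPM in the knockout and 86.1 CPM in the control library, a ratio of -1.33 (-1.50 to -1.18). Sox8, a relative of Sox9, was at 467 CPM in the knockout and 258 CPM in the control library, a ratio of 0.85. Gata4, Nr5a1 and Dmrt1 lay between -0.08 and 0.04. Tcf21 was the highest at 1.03, at 119 CPM in the knockout and 58.4 CPM in the control library, but its level under the strict gate was 13.3 and 4.96 CPM.

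Barrier and junction genes were lower by small amounts, with a median of -0.24 (-0.21 under the strict gate, -0.17 in AMH-detected cells). Of 19 measured members 3 were at least 1.5-fold lower (background 8.5%) and 1 higher (background 19.6%). Cdh2 and Cldn11 were the lowest. Tjp1, for ZO-1, was at -0.56, and Gja1, the main gap junction gene of Sertoli cells, at 0.39. In the retinoic acid list 4 of 15 were lower and 2 higher. Aldh1a2, an enzyme that makes retinoic acid, was at 65.7 CPM in the knockout and 134 CPM in the control library, a ratio of -1.03, and Cyp26b1, which breaks it down, at 137 and 68.4 CPM, a ratio of 1.00. Cyp26b1 under the strict gate was at 24.9 CPM in knockout and 7.92 CPM in control cells, a ratio of 1.65. Crabp1 and Cyp26a1, a retinoic acid carrier and a second degrading enzyme, were the lowest at -3.49 and -1.95, on 8 and 16 knockout UMIs. Crabp1 was at 5.95 CPM in the free RNA of the knockout and 131 CPM in that of the control library, and its ratio was below 0 with free RNA subtracted at the measured limit given further on, and 2.04 with 10% of UMIs subtracted, which is more than that limit in either library. In the Notch list 5 of 13 were higher, led by Lfng at 1.48, and 4 lower, led by Hey1 at -1.92 on 19 knockout and 104 control UMIs. The backgrounds over all genes were 19.6% and 8.5%. In the strict gate 2 of 12 Notch genes were higher, beside 16.7% of all genes, and 4 lower, beside 8.7%.

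**Figure D4:**
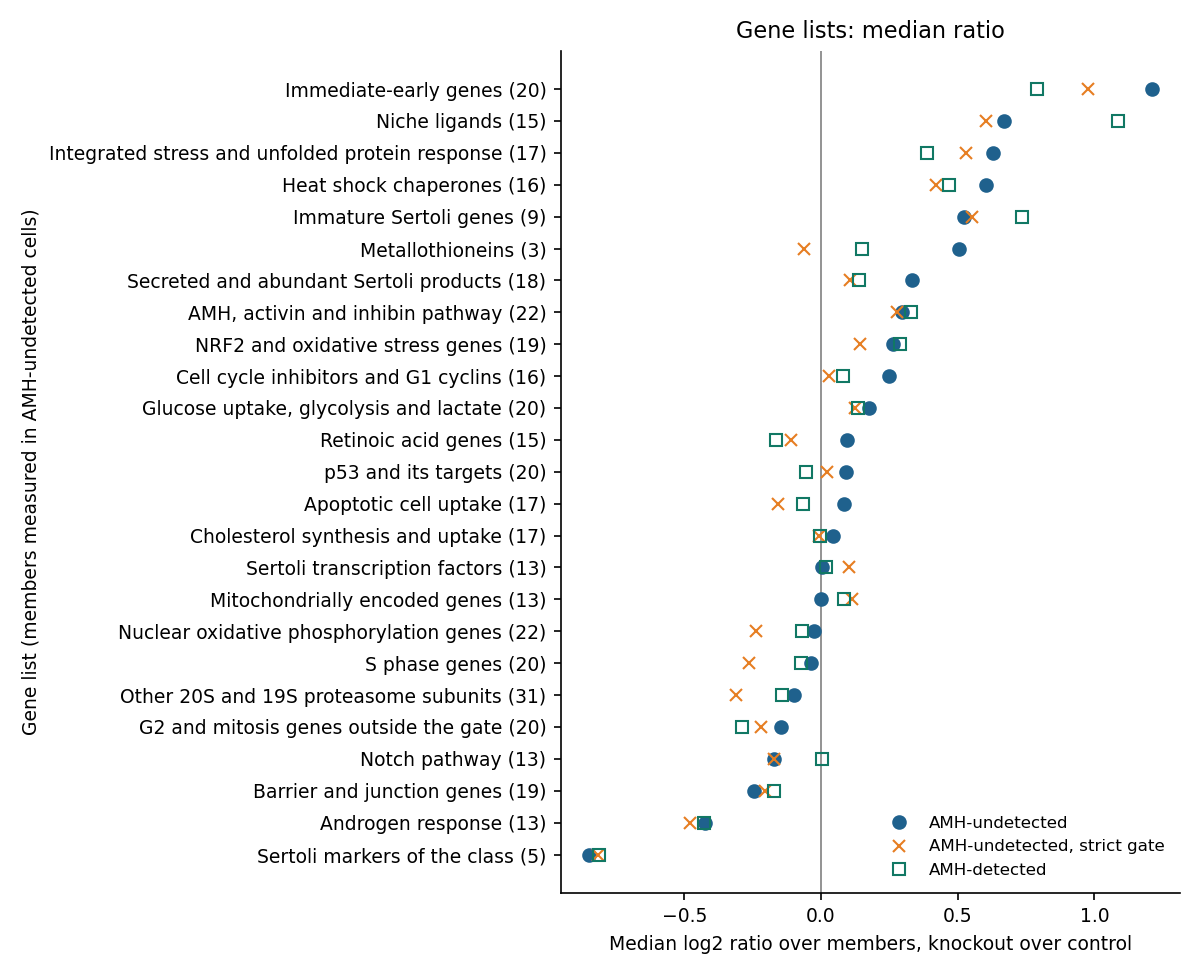
Median log2 ratio, knockout over control, of each gene list in AMH-undetected cells (filled circles), under the strict gate (crosses) and in AMH-detected cells (open squares), with the number of members measured. Immediate-early genes and niche ligands had the highest medians in AMH-undetected cells, 1.21 and 0.67, and the class markers the lowest, -0.85.

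Stress-responsive genes were higher in the knockout library. Immediate-early genes, which dissociation of tissue can also induce, had 18 of 20 members at least 1.5-fold higher (background 19.6%) and 0 lower (background 8.5%). Their median was 1.21, and it was 0.98 under the strict gate and 0.79 in AMH-detected cells. Fos was at 1158 CPM in the knockout and 429 CPM in the control library, and at 617.7 and 289 CPM under the strict gate. Nr4a1, an orphan nuclear receptor, was at 163 CPM in the knockout and 54.9 CPM in the control library, a ratio of 1.57, and Klf6 was the lowest at -0.24. Each genotype had its own cell suspension, so handling and genotype cannot be told apart in these genes.

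Heat shock chaperones had 9 of 16 members higher (background 19.6%) and 1 lower (background 8.5%), with a median of 0.60. With the strict gate the chaperone median was 0.42, and 4 of 16 were higher, beside 16.7% of all genes, and 1 lower, beside 8.7%. Dnajb1, a co-chaperone of HSP70, was at 204 CPM in the knockout and 70.1 CPM in the control library, a ratio of 1.54, or 1.21 under the strict gate. Hspa1b and its near-identical copy Hspa1a, between which reads can be split, were at 1.09 and 1.05, and Hspa4l was the lowest at -0.99. The integrated stress and unfolded protein response had 10 of 17 members higher (background 19.6%) and 1 lower (background 8.5%). Its median was 0.63 (0.53 under the strict gate). Dnajb9, a chaperone of the endoplasmic reticulum, was at 346 CPM in the knockout and 154 CPM in the control library, and Herpud1, which takes part in degradation of proteins from that compartment, at 40.7 and 18.1 CPM, both at a ratio of 1.17. Sdf2l1 was the lowest at -0.75 on 42 knockout and 101 control UMIs, followed by Sesn2 at -0.23. Sdf2l1 was at 3.55 CPM in knockout and 6.02 CPM in control cells of the class, and at 9.52 CPM in the free RNA of the knockout and 78.6 CPM in that of the control library. Its ratio was -0.29 with free RNA subtracted at the measured limit and 6.47 with 10% subtracted.

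The next lists had medians between -0.02 and 0.50, beside 0.04 for all genes. NRF2 and oxidative stress genes had a median of 0.26, between Gsta4 at -0.52 and Nfe2l1 at 0.88, close under Slc7a11 at 0.88 on 34 knockout and 26 control UMIs. Nfe2l1, a transcription factor that raises proteasome genes when the proteasome is impaired, was at 302 CPM in the knockout and 164 CPM in the control library. p53 and its targets had a median of 0.09, with Plk2 at 1.05, Pmaip1 at 1.17 on 32 and 20 UMIs, Aen at -0.38 and Sesn1 at -0.68. Glucose uptake and glycolysis had one of 0.17, from Slc2a3 at -0.60 and Pfkfb3 at -0.37 to Tpi1 at 0.88 and Pfkp at 0.96. Uptake of apoptotic cells, a task of Sertoli cells, had one of 0.08, from Elmo1 at -0.95 and Scarb1 at -0.66 to Tyro3 at 0.70 and Gulp1 at 0.88. Cholesterol genes had one of 0.04, with Idi1 at 0.67 and Insig1 at 0.66 above Srebf2 at -0.26 and Dhcr7 at -0.27. Of the 3 metallothioneins Mt1 was at 0.81, Mt3 at 0.50 and Mt2 at 0.03, a median of 0.50 that was -0.06 under the strict gate. Nuclear and mitochondrially encoded genes of oxidative phosphorylation had medians of -0.02 and 0.00. Past 1.5-fold were 0 members of either list, beside 19.6% of all genes higher and 8.5% lower. With the strict gate the nuclear list had a median of -0.24, beside -0.00 for all genes, with 20 of 22 members below 0.

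Cell cycle genes outside the gate had medians of -0.03 for S phase genes and -0.15 for G2 and mitosis genes in these non-dividing cells. These were -0.26 and -0.22 under the strict gate, and ranged over the alternatives from -0.38 to 0.91 for S phase and from -0.83 to 1.46 for G2 and mitosis genes. Ccnd3 and Cdkn1c, a G1 cyclin and a cell cycle inhibitor, were at 1.18 and 1.33, and Cdkn2a and Ccnd1 at -2.38 and -1.43. Cdkn2a was counted 16 times in the knockout and 121 times in the control library. Its level in free RNA was 11.9 CPM in the knockout and 119 CPM in the control library, beside a class level of 1.35 and 7.22 CPM. For Cdkn2a, Ccnd1 and the mitosis gene Bub1, which was at -1.79, subtraction of 10% of UMIs as free RNA turned the direction, while at the measured limit the 3 ratios were below 0. Meiotic markers summed to 26.7 CPM in knockout and 123 CPM in control cells of the class, and markers of differentiating spermatogonia to 29.8 and 69.9 CPM. Read from marker lists, free RNA made up at most 9.83% of the UMIs of knockout and 3.26% of those of control cells, both under the 10% subtracted above.

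The 15 highest genes in knockout cells, by the rule on levels and free RNA given with the methods, lay between 1.77 and 3.90. Rimbp2, which scaffolds calcium channels at synapses, was the highest, at 20.9 CPM (18.4 to 23.7) in the knockout and 1.37 CPM (0.869 to 2.06) in the control library. Smad6 followed, and with it Ccnb1ip1, a ubiquitin ligase known from meiotic crossing over, at 77.8 CPM in the knockout and 13.5 CPM in the control library, a ratio of 2.53. Hsd17b1, the protocadherins Pcdh15 and Pcdh17 at 2.30 and 2.22, and Gdnf came next. Dnaja4, a co-chaperone, was at 1.89, Hexim2, an inhibitor of the elongation factor P-TEFb, at 1.81, Dgat2, of triglyceride synthesis, at 1.81, and Kcnq3, a potassium channel, at 1.80. Of the 15, 4 had most of their UMIs outside the strict gate. Dlk1, an imprinted ligand of the Notch family, was at 315 CPM in the knockout and 69.1 CPM in the control library, and at 24.1 and 6.24 CPM under the strict gate. Socs3, an inhibitor of cytokine signalling, was at 178 and 49.3 CPM in the knockout and control libraries, and at 32.7 and 16.2 CPM under the strict gate. Il1rapl2 was at 27.5 and 4.95 CPM, and at 1.95 and 0.80 CPM under it, and its ratio of 2.47 was -0.78 in cells of 5000 to 10000 UMIs. Inhba, given above, was the 4th.

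The 15 lowest genes lay between -2.74 and -1.92. Cpne8, a copine that binds membranes in the presence of calcium, was the lowest, at 19.8 CPM (17.4 to 22.6) in the knockout and 133 CPM (128 to 139) in the control library, and at 19.9 and 139 CPM under the strict gate. L3mbtl4, a chromatin reader, was the most abundant of them, at 174 CPM in the knockout and 656 CPM in the control library, and was seen in 25.2% of knockout and 63.4% of control cells after thinning, against 5.26% and 1.12% of endothelial cells. Genes that modify heparan sulfate on the cell surface were represented by Hs6st2, a sulfotransferase, at 75.2 CPM in the knockout and 339 CPM in the control library, and by Sulf1, a sulfatase, at 54.4 and 206 CPM. Receptors among them were Lpar3, for lysophosphatidic acid, at -2.10 and Gpr55 at -1.95. The others were Samd12 at -2.53, Rubcnl at -2.48, Sdk2, the adaptor Shc4 at -2.18, B4galt6, an enzyme of glycolipid synthesis, at -2.14, Hopx and Fyb2 at -2.01, Cacng5 at -1.96 and Rhox5. Each of the 15 lowest and 15 highest genes was past 2-fold in the same direction under the strict gate, whose cells are part of the class. There the lowest ranged from -3.08 to -1.66 and the highest from 1.01 to 4.25, with Il1rapl2 and Inhba under 30 UMIs. Strict-gate cells of at least 10000 UMIs, also part of the class, numbered 48 in the knockout and 242 in the control library. In these cells 12 of the 15 highest and 14 of the 15 lowest were past 2-fold. Some of these ratios rested on few UMIs, such as Rhox5 on 1 knockout and 73 control UMIs and Inhba on 1 and 3. Ccnb1ip1 was at 0.83 there on 9 knockout and 28 control UMIs, Dlk1 at 0.16 on 4 and 21, and Il1rapl2 at 0.83 on 0 and 1. Sulf1 was at -0.89. In AMH-detected cells the lowest ranged from -2.91 to -1.32 and the highest from 1.06 to 3.83, read from the same pair of libraries.

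**Figure D5:**
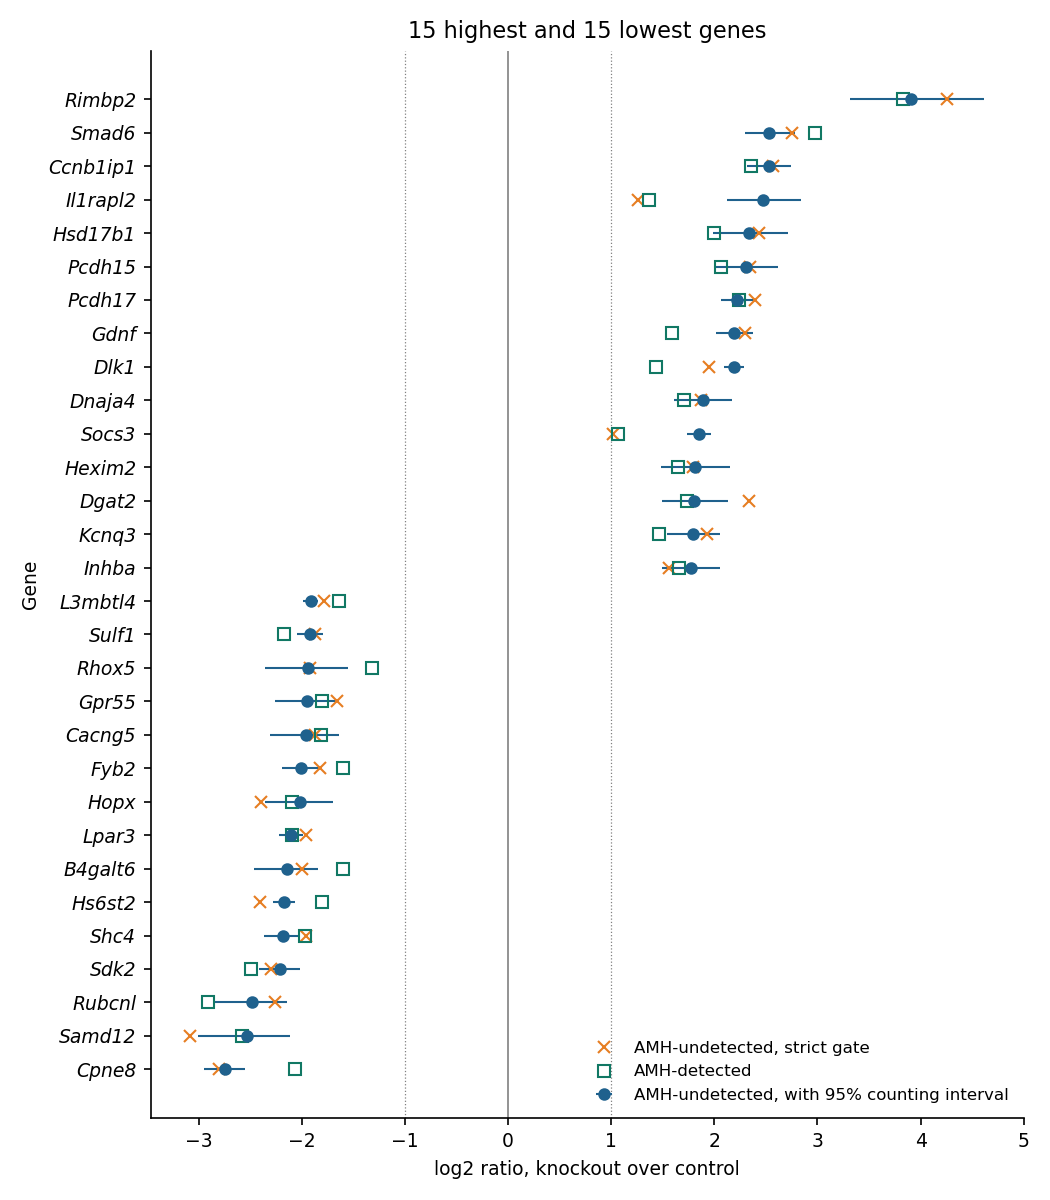
Log2 ratio, knockout over control, of the 15 highest and 15 lowest genes in AMH-undetected cells (filled circles with exact 95% counting intervals), under the strict gate (crosses) and in AMH-detected cells (open squares), with dotted lines at 2-fold. AMH-undetected values ran from -2.74 for Cpne8 to 3.90 for Rimbp2, and under the strict gate from -3.08 to 4.25.

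AMH-undetected cells were also set against AMH-detected cells within each library, in cells of 5000 to 10000 UMIs so that depth was matched, 468 against 1034 cells in the knockout and 881 against 330 cells in the control library. Without the strict gate 404 of 12683 genes (3.19%) were 2-fold or more higher in the AMH-undetected cells of the knockout library and 355 of 12022 (2.95%) in those of the control library. Under the strict gate these counts were 87 (0.712%) and 89 (0.793%). The highest genes were Clec3b, Ccn4, Dlk1, Penk and Igfbp6 in the knockout, at 3.19 to 3.52, and Rgs1, Tpm2, Osr2, Tcf21 and Adcy7 in the control library, at 2.56 to 5.12. Under the strict gate Igfbp6 was left with 15 AMH-undetected and 49 AMH-detected UMIs in the knockout library and Osr2 with 7 and 6 UMIs in the control library. For Igfbp6 and Osr2 the excess in AMH-undetected cells thus went with the cells that the strict gate removed.

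Without the strict gate, genes lower in AMH-undetected cells were fewer, 107 (0.844%) in the knockout and 78 (0.649%) in the control library. Under the strict gate their counts were 126 (1.03%) and 77 (0.686%). There the lower genes outnumbered the 87 higher ones in the knockout library, and were fewer than the 89 higher ones in the control library. Mcrip2 was among the 5 lowest in both libraries, at -1.12 in the knockout and -1.09 in the control library, and at -1.03 and -1.11 under the strict gate. Hsd17b1 was the lowest in the knockout library, at 18.98 CPM in AMH-undetected and 45.01 CPM in AMH-detected cells, a ratio of -1.24. In the control library it was at 4.83 CPM in AMH-undetected and 15.6 CPM in AMH-detected cells. Hsd17b1 thus went with Amh inside each library while being higher in the knockout in both classes. Susd1 at -1.08, Hexim2 at -1.03 and Drd4, a dopamine receptor gene, at -1.01 completed the 5 lowest of the knockout library.

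Gdnf differed between the libraries in this respect by size, and that difference was not tested. It was at 72.6 CPM in AMH-undetected and 104 CPM in AMH-detected cells of the knockout library, a ratio of -0.52 (-0.33 under the strict gate). In the control library it was at 15.8 CPM in AMH-undetected and 40.4 CPM in AMH-detected cells, a ratio of -1.35 (-1.18 under the strict gate). Lyz2, a macrophage gene, at -4.12 on 8 and 58 UMIs, the channel gene Trpv2 at -1.14 and the transcriptional cofactor gene Cited1 at -1.10 were the others among the control library's 5 lowest. Of the class markers, Sdk2 and Cdh2 were higher in AMH-undetected cells of both libraries, Sdk2 at 1.63 in the knockout and 0.88 in the control library and Cdh2 at 0.49 and 0.33, while Cldn11 and Defb36 lay between -0.17 and 0.03. Rhox5 was lower in AMH-undetected cells, at -0.74 in the knockout and -0.61 in the control library, and Cst9, a gate gene, at -1.01 and -0.98.

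Between the classes, the knockout over control ratio differed most for 5 genes with at least 100 UMIs in each class: Pf4, Ren1, Apcdd1, Xcl1 and Rgs1. Each had at most 243 UMIs per library in AMH-undetected cells. Ren1 was at 0.17 in AMH-undetected and 3.08 in AMH-detected cells, Apcdd1 at 0.48 and 2.84, Xcl1 at -0.16 and -2.13, and Rgs1 at -0.40 and 1.53. None of them is a gene of the Sertoli lists.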

How the data were processed

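The deposited files were unfiltered matrices of raw UMI counts per gene and barcode. Per the file headers, Cell Ranger 7.1.0 wrote them. The genome build was mm10, per the submitters' processing notes. The matrices held 1477364 barcodes for the knockout and 1707157 barcodes for the control library and 32285 gene IDs, of which 32235 were found in GENCODE M21, the source of gene coordinates. Barcodes that passed the cell filter numbered 10864 in the knockout and 11232 in the control library.

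From these counts, UMIs were summed over the cells of a class. Levels are CPM of the class total, and log2 ratios add 0.5 UMI to each sum. Genes with at least 30 UMIs over both libraries were compared. Ratios and intervals were run on simulated Poisson and binomial counts. Such counts hold no spread between cells or libraries, so this was a check of the calculation only. Thinning drew UMIs at random without replacement to a fixed number per cell. Free RNA was read from barcodes of 10 to 100 UMIs. Doublets were sought with Scrublet (scanpy 1.11.5), whose automatic threshold marked 0 knockout cells and was set aside for the control library's threshold of 0.187 in both, marking 275 knockout and 495 control cells, 80 and 83 of them in the class, which were kept. Python 3.11.15, numpy 2.4.6, scipy 1.17.1 and pandas 2.3.3 were used. Promoter windows are RefSeq's on GRCm38.p6.

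Named genes were Psma7, the gate genes and the class markers; the 15 highest and 15 lowest genes that reached 20 CPM and 30 UMIs in whichever library was higher and whose ratio kept its sign and most of its size after 10% of UMIs were subtracted as free RNA, without mitochondrial, ribosomal, haemoglobin and gate genes or unnamed gene models; the 2 members at either end of each list; the 5 highest and 5 lowest within each library; and the 5 genes whose ratios differed most between the classes. Other list members named for a known role were chosen after their values were seen. The class, its markers and the gene lists were chosen with earlier results of these data known. Alternatives changed the cell filter, gates, depth, free RNA, scaling, gene minimum, doublets and weighting of cells. A few list members are counted in their lists but not reported here by name.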

Additional observations from a re-analysis of the deposited data

Results flagged for a closer look

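The knockout over control ratio of 2 named genes was at least 1.5-fold from level in both classes but opposite in direction, with intervals that did not touch 0. The difference between the classes was not tested. Rgs1 also lay on opposite sides of 0, at -0.40 (-0.72 to -0.09) in AMH-undetected and 1.53 (0.71 to 2.58) in AMH-detected cells. Its ratio in AMH-undetected cells was under 1.5-fold. Cdc6, a gene of DNA replication, was at 0.82 (0.06 to 1.59) in AMH-undetected cells, on 35 knockout and 28 control UMIs. In AMH-detected cells Cdc6 was at -1.17 (-1.98 to -0.33), on 29 knockout and 25 control UMIs. Under the strict gate it was at 1.08, on 21 knockout and 15 control UMIs. Pf4, a chemokine gene of platelets and macrophages, was at 1.51 (0.90 to 2.17) in AMH-undetected cells, on 67 knockout and 33 control UMIs. In AMH-detected cells Pf4 was at -1.45 (-1.86 to -1.03), on 98 knockout and 103 control UMIs. Under the strict gate it was at 1.01, on 28 knockout and 21 control UMIs. Pf4 in free RNA was at 79.7 CPM in the knockout and 54.8 CPM in the control library, above its level in the class. With free RNA subtracted at the measured limit, the Pf4 ratio in AMH-undetected cells turned to below 0, as given in the next section. The part of free RNA and of macrophages in the Pf4 ratios was otherwise not tested. Each class here is 1 sample per genotype, so these results rest on counting intervals alone.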

How the results depend on the processing

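No paired analysis was possible because each genotype had 1 library, and for the same reason no library could be left out. The lower share of AMH-undetected cells in the knockout, -31.9 percentage points, was -33.7 with at least 2000 UMIs, -25.7 with at most 10% mitochondrial UMIs, -33.8 with no Ddx4 or Dazl UMI, -41.6 in cells of 5000 to 10000 UMIs, -35.8 under the strict gate in cells of at least 10000 UMIs (8.63% in the knockout and 44.4% in the control library), -26.4 thinned to 2000 UMIs and -38.7 thinned to 5000 UMIs. Psma7 was at -1.41 with at most 10% mitochondrial UMIs, -1.73 with gate genes at 20 per 10000, -1.36 with gate genes at 5, -1.74 under the strict gate and -1.67 with free RNA subtracted at its measured limit. The 1284 genes that were 2-fold higher became 567 in cells of 5000 to 10000 UMIs, 384 under the strict gate in deep cells, 734 at 100 UMIs, 4282 with no minimum and 1966 with 10% of UMIs subtracted as free RNA, and the 490 lower genes 283 at 100 UMIs and 2598 with no minimum. The class marker median of -0.85 was -0.999 with at most 10% mitochondrial UMIs, -1.04 with gate genes at 5, -0.33 when the markers were themselves the gate, -0.71 in cells of 5000 to 10000 UMIs and -0.72 under the strict gate in deep cells. The niche ligand median of 0.67 was 1.05 with the markers as gate and 0.45 at its lowest, in cells of 5000 to 10000 UMIs. The immature Sertoli median of 0.52 was 0.13 under the strict gate in deep cells and 1.07 with no minimum of UMIs. The immediate-early median of 1.21 was 0.96 and 1.11 with gate genes at 20 and 5, 1.10 with no division UMI, 1.27 without doublets, 0.84 in cells of 5000 to 10000 UMIs, 0.98 under the strict gate, 0.87 under it in deep cells and 1.08 with cells weighted equally. Within libraries, genes 2-fold higher in AMH-undetected cells numbered 87 in the knockout and 89 in the control library under the strict gate. Among named genes past 2-fold, directions turned for Pf4 (-0.11 with the markers as gate and -2.20 with measured free RNA subtracted), for Il1rapl2 (-0.78 in cells of 5000 to 10000 UMIs) and, with 10% of UMIs subtracted as free RNA, for Crabp1 (2.04), Cdkn2a (2.77), Ccnd1 (1.59) and Bub1 (4.25). Smaller ratios turned as well, among them Sdf2l1 (6.47), Hells (1.99) and Mcm2 (1.10) with 10% subtracted and Mt1 (-0.06) under the strict gate. Of 124 named genes 59 were past 2-fold, and 33 of those were past it in the same direction under each alternative in which they reached the minimum of UMIs, which leaves out the strict gate in deep cells for genes such as Dlk1. The cause of these shifts was not tested. Depth limited genes under 30 UMIs, and a lone library per genotype leaves handling, animal and genotype inseparable.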
